A study of Mus musculus with 41 samples.

Results

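Pydc3 and the Ifi200 (PYHIN) gene family of mouse chromosome 1 were followed across 41 RNA-seq libraries of sorted T cells. The family was taken as the rows of the count table carrying the symbols Pydc3, Pydc4, Pyhin1, Ifi202b, Ifi203, Ifi204, Ifi205, Mnda, Mndal or Aim2. All 10 were among the 19434 genes of the table. Pydc3 leads the set because it was the 1 gene called between genotypes in labeled Treg cells, so its values in that comparison are a description and carry no test.

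The study deleted Uhrf1, the protein that directs DNA methyltransferase 1 to newly copied DNA, in regulatory T (Treg) cells, which are defined by the transcription factor Foxp3. In the chimera experiment, CD25-high Foxp3-YFP+ Treg cells came from 4 Uhrf1 fl/fl Foxp3 +/YFP-Cre females (chimeric knockout) and 4 Uhrf1 +/+ Foxp3 YFP-Cre/YFP-Cre females (control), all 8 weeks old. Because Foxp3 lies on the X chromosome, heterozygous females express the Cre in part of their Treg cells, and the YFP gate selects that part. In the pulse-chase experiment, Uhrf1 fl/fl (6 replicates) and Uhrf1 +/+ control mice (5 replicates) both carried Foxp3 GFP-CreERT2, a Cre active after tamoxifen in Foxp3-expressing cells, and Rosa26Sor CAG-tdTomato, a reporter switched on by that Cre. These mice were 8 weeks old, and their tamoxifen chow, given over 2 weeks, was followed by 4 weeks on a standard diet. From each genotype came ex-Foxp3 cells (GFP- tdTomato+, which lost Foxp3 after labeling), labeled Treg cells (GFP+ tdTomato+) and post-tamoxifen Treg cells (GFP+ tdTomato-). The labels name no mouse strain.

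PYHIN proteins are built from a HIN domain, which binds DNA, and a pyrin domain, which recruits other pyrin proteins, although some members have just one of them. Aim2, the best known, senses DNA in the cytosol and assembles the inflammasome, a complex that activates caspase-1. Many members are induced by interferons, and the cluster is known to differ in gene content between inbred mouse strains.

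The rows lie between positions 173350879 and 174031755 of chromosome 1 (mm10). Pydc3 occupies 173673911 to 173698392 on the + strand and is now called Ifi208. Pydc4 (now Ifi213) occupies 173566284 to 173599274 on the - strand, and Pyhin1 (now Ifi209) 173630859 to 173647928 on the + strand. Mnda is now called Ifi211. Another 3 PYHIN rows, Gm4955 (now Ifi206), BC094916 (now Ifi214) and AI607873 (now Ifi207), lie among them without being members, and are given where they help. Of the 24 other rows within 500 kb of the cluster, 23 held under 10 reads over all 41 libraries and the largest held 40.

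The members are near copies of each other, and this limits what reads can tell apart. Of the 50-base words in Pydc3 transcripts, 18.1% also occur in Pydc4 and 6.07% in Gm4955. Of those in Pyhin1, 33.4% occur in BC094916. Mnda shares 72.8% of its words with other genes, mainly Ifi205 and Ifi204, whereas Aim2 shares 0.742%. How the counting treated such reads was not given in the sources used here, so the split between close copies is uncertain. The Mndal row also overlaps the rows of Mnda and Ifi203 on the same strand, although its exons share only 37 bases with those of Ifi203.

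Promoters of 4 members are shown because Pydc3 and Pydc4 have nearly the same promoter, whereas Pyhin1 and Aim2 carry other sequences. They are RefSeq sequences on build GRCm38.p6, from 250 bases before the start of the gene to 50 after it, written 5′ to 3′ on the strand of the gene. Capitals mark matches to GAAA, any 2 bases and GAAA again, the core of the interferon-stimulated response element, searched on both strands.
Pydc3 (chr1:173673415-173673714, + strand): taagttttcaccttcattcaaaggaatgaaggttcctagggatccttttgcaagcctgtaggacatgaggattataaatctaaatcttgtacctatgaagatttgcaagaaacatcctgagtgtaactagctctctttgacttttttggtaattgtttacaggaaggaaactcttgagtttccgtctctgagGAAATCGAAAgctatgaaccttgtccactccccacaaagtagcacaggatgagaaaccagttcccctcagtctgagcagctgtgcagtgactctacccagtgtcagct
Pydc4 (chr1:173599223-173599522, - strand): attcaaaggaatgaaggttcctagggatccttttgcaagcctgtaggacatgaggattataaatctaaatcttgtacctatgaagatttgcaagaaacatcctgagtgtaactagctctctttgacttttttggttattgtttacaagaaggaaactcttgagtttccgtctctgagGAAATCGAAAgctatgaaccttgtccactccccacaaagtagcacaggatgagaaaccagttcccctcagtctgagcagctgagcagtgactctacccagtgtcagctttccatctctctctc
Pyhin1 (chr1:173630609-173630908, + strand): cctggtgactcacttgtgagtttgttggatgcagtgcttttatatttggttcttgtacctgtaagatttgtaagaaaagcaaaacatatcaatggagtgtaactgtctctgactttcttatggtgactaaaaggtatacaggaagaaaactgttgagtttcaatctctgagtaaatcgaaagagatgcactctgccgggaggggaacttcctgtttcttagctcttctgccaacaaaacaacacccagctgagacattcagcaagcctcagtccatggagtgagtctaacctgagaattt
Aim2 (chr1:173420354-173420653, + strand): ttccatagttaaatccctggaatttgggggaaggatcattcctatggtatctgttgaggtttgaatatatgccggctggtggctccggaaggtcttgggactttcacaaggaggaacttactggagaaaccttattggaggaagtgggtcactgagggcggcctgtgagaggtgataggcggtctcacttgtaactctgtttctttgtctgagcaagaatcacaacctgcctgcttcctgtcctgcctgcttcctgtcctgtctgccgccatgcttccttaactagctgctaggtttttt

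The Pydc3 and Pydc4 promoters matched at 98.9% of 285 aligned bases, and the Pydc3 and Gm4955 promoters at 99.3% of 281. The element began 58 bases before the start of Pydc3 and 73 before that of Pydc4, as GAAATCGAAA in both. The same 10 letters stood before 1 of the 2 listed start sites of Ifi203 (35 bases) and 1 of the 2 of Mndal (36), and before Gm4955 (40), BC094916 (79) and AI607873 (41), while Mnda and Ifi205 had GAAATTGAAA. The Pyhin1, Ifi202b and Aim2 windows and that of the other Ifi203 start held no match, and the other Mndal window held a different one on the opposite strand. Over all 32851 promoters of that length, 3.44% held a match on either strand. Promoters of the family were poor in CpG, the site of DNA methylation, with 1 to 5 per window where the median promoter has 7. GAAATCGAAA itself contains 1 CpG, which is 1 of the 2 CpG in the Pydc3 window. Ifi204 was not matched to a promoter.

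Total counts per library ran from 2403189 to 5709702 in the chimera and from 781437 to 3435802 in the pulse-chase experiment. Levels are given as CPM, read counts scaled to a common TMM-adjusted library size within each experiment, and differences as log2 fold changes ± SE from edgeR's quasi-likelihood test. A difference is called where its p-value, adjusted by Benjamini-Hochberg over all genes tested, is under 0.05. A filter on low counts left 6 members in the chimera fit and 8 in the pulse-chase fit. All 11 Treg and CD4 T cell markers were detected in every group, and their sum lay between 3896 and 6577 CPM. Foxp3 was at 61.1 ± 38.2 CPM in fl/fl ex-Foxp3 cells and 109 ± 29.3 CPM in control ex-Foxp3 cells, against means of 346 to 406 CPM in the other pulse-chase groups. Uhrf1 was lower in chimera knockouts (log2 fold change -0.95 ± 0.25, adjusted p = 0.0378), although the library labelled knockout 4 held 22.3 CPM, within the control range of 22.3 to 32.5. Between genotypes of labeled Treg cells Uhrf1 did not pass the test (46.2 CPM in fl/fl, 50.6 CPM in control). Nor did it in ex-Foxp3 cells (16.7 CPM in fl/fl, 19.4 CPM in control) or in post-tamoxifen cells. There fl/fl cells had the higher mean, at 84.9 ± 65.1 CPM against 29.9 ± 18.7 CPM in control (log2 fold change 1.62 ± 0.64, adjusted p = 0.113). Y-linked transcripts were found in 7 libraries (318 to 455 CPM, others at most 2.33): chimera control 1, labelled female, and all populations of pulse-chase controls 2 and 3. Another 4 pulse-chase libraries were doubted: control post-tamoxifen 2 (Foxp3 123 CPM) and fl/fl post-tamoxifen 3 (128 CPM) had the lowest Foxp3 of their groups, and fl/fl ex-Foxp3 1 and 3 had the highest sums of CD8 T cell markers (21.6 and 14.3 CPM, others 5.25 to 11.9) and of NK cell markers (20.8 and 10.97 CPM, others 4.93 to 10.8) in theirs. Results are given without these libraries where that changed a call. Among ex-Foxp3 libraries only fl/fl ones were doubted. Control ex-Foxp3 numbers 2 and 3 were not, with CD8 T cell sums of 12.6 and 14.6 CPM and NK cell sums of 6.92 and 7.92 CPM.

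Expressed per kb of exon, so that genes can be compared with each other, the family fell into an abundant and a scarce part in every group. In control labeled Treg cells the mean level was 93.6 CPM per kb for Mndal and 77.1 for Ifi203, both interferon-inducible members. Pyhin1 followed at 66.0, then Pydc3 at 21.5, Aim2 at 17.4 and Pydc4 at 17.1. Ifi204 and Mnda lay under 4 CPM per kb in all 8 groups. Ifi202b, which lacks the pyrin domain and inhibits Aim2, had 2 reads in all, both in 1 chimera knockout library. Ifi205 also had 2 reads, both in 1 control post-tamoxifen library. These last 2 genes were not detectable at this depth elsewhere.

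**Figure D1:**
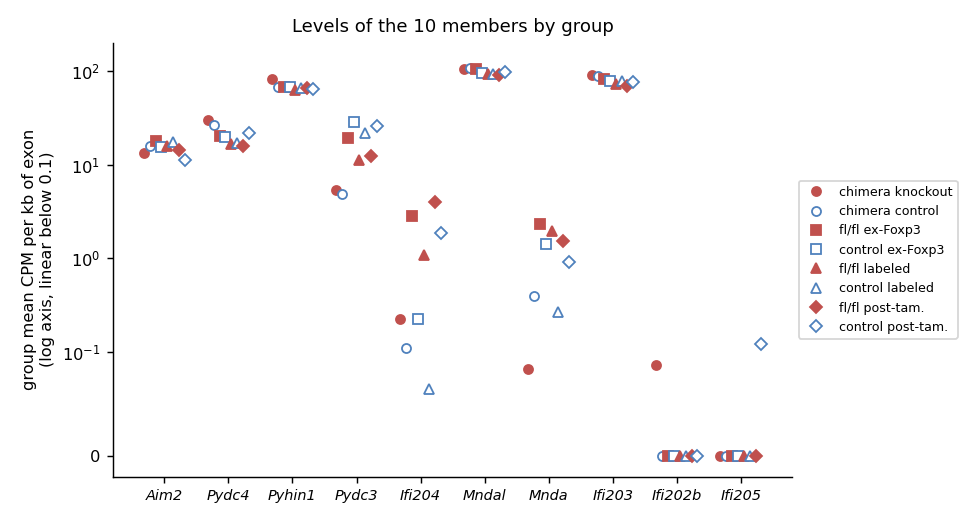
Mean level of the 10 members in each of the 8 groups, in CPM per kb of exon on a log axis that is linear below 0.1. Filled red symbols are knockout or fl/fl groups and open blue symbols are control groups. Mndal, Ifi203 and Pyhin1 lie highest in all groups, Pydc3 spreads from 4.80 to 28.3, and Ifi202b and Ifi205 sit at or near 0.

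Pydc3 encodes a pyrin domain protein, and its level did not differ detectably between genotypes in the chimera. In chimera knockouts its 4 libraries held 27.9, 37.8, 24.4 and 22.0 CPM, against 26.1, 23.5, 24.4 and 26.9 CPM in chimera controls. The ranges overlap and the means are near each other, at 28.0 ± 6.92 CPM in knockouts and 25.2 ± 1.56 CPM in controls (SD, n = 4 each). The log2 fold change was 0.17 ± 0.18 (adjusted p = 0.776), with a 95% interval from -0.28 to 0.61. In this comparison 2.41% of all genes tested were called.

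Pulse-chase libraries held several times more Pydc3 than chimera libraries, in controls as well. With all 41 libraries scaled together, Pydc3 averaged 113 to 149 CPM in the 3 pulse-chase control groups and 25.0 CPM in chimera controls. Pydc4 went the other way, at 117 to 148 CPM in the pulse-chase control groups and 179 CPM in chimera controls. The count of Pydc3 per count of Pydc4 in the same library, which no scaling can alter, ran from 0.701 to 1.57 over the pulse-chase controls and from 0.114 to 0.192 in chimera controls. Ifi203 per library differed less, with means of 505 to 528 CPM in pulse-chase controls and 590 CPM in chimera controls. The experiments differ in alleles, sort gate and handling, so experiment and mouse line cannot be told apart here, and no test was made.

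**Figure D2:**
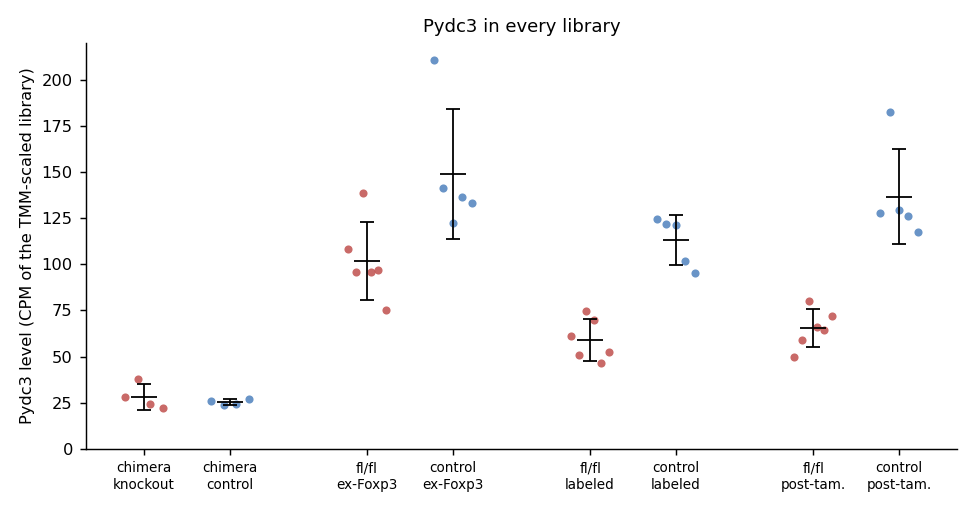
Pydc3 in every library of the 8 groups, in CPM of the TMM-scaled library. Points are libraries, bars are the mean ± SD, red marks knockout or fl/fl and blue marks control. The fl/fl labeled and fl/fl post-tamoxifen points lie below all points of their controls, ex-Foxp3 points overlap, and chimera points lie between 22.0 and 37.8.

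Within the pulse-chase experiment Pydc3 was lower in fl/fl than in control cells in each population, by an amount that differed in its support. In labeled Treg cells, the comparison that singled the gene out, fl/fl libraries held 61.0, 50.7, 74.8, 70.1, 46.3 and 52.3 CPM, against 125, 122, 121, 102 and 95.1 CPM in controls. No fl/fl library reached the lowest control. The log2 fold change of -0.95 ± 0.15 describes the choice and is not tested. Pydc3 was the 1 called gene there, 0.0101% of those tested, and without control numbers 2 and 3 no gene was called. The next member in size of decrease, Aim2, stood at -0.14 ± 0.17.

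Post-tamoxifen Treg cells carry no tdTomato label, so nothing marks them as cells in which the Cre acted, and Uhrf1 was not lower in them in fl/fl mice. In these cells Pydc3 was lower in fl/fl than in control mice by 1.06 on the log2 scale (± 0.15, adjusted p = 5.16e-05). The fl/fl libraries held 49.99, 59.1, 80.3, 66.0, 64.6 and 72.2 CPM, against 128, 182, 129, 126 and 118 CPM in controls. Again all 6 fl/fl libraries lay below all 5 control libraries, at a mean of 65.4 ± 10.4 CPM in fl/fl and 137 ± 26.0 CPM in control cells (SD). The call held under every alternative tried, with log2 fold changes from -1.22 to -0.84. Of all genes tested 7.23% were called in this comparison, and Pydc3 was 1 of the 8 members tested. These libraries were not used to choose Pydc3, but they carry the same replicate numbers as the labeled libraries, and the labels do not say that they come from other mice.

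For ex-Foxp3 cells the same direction did not pass the test. These libraries too shared the fit and the replicate numbers of the labeled libraries. Deviations of same-numbered ex-Foxp3 and labeled libraries correlated at 0.144 to 0.360 in fl/fl and 0.139 to 0.303 in control mice. Pydc3 stood at 108, 95.9, 139, 96.0, 96.9 and 75.2 CPM in fl/fl libraries, against 211, 142, 123, 137 and 134 CPM in controls. The groups overlap through fl/fl number 3, which lies above 3 of the 5 controls. The log2 fold change was -0.55 ± 0.14 (adjusted p = 0.0941), with a 95% interval from -0.85 to -0.25. No member was called by edgeR, beside 0.181% of all genes. An unadjusted p under 0.05 was found for 2 of 8 members, beside 877 of all 9921 genes tested. Under DESeq2 Pydc3 was called (adjusted p = 0.0455). Without the 4 doubted libraries, which include fl/fl number 3, edgeR called it too, at -0.71 (adjusted p = 0.0221). That step took only fl/fl libraries out of this comparison, among them the one through which the groups overlap.

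Close relatives and other abundant members did not pass the test in either comparison. Pydc4 held 124, 97.4, 130, 123, 72.5 and 105 CPM in fl/fl post-tamoxifen cells, against 176, 161, 147, 143 and 114 CPM in controls. The ranges overlap, and the log2 fold change was -0.43 ± 0.23 (adjusted p = 0.261). In ex-Foxp3 cells Pydc4 stood at 0.03 ± 0.23 (adjusted p = 0.989). Gm4955, whose promoter matches that of Pydc3 most closely, stood at -0.26 ± 0.24 (adjusted p = 0.543) in post-tamoxifen and at 0.09 ± 0.24 (adjusted p = 0.964) in ex-Foxp3 cells. Pyhin1, Ifi203 and Mndal lay within -0.14 and 0.14 of 0 on the log2 scale in both comparisons, none called. Aim2 was at 0.32 ± 0.17 (adjusted p = 0.246) in post-tamoxifen and 0.22 ± 0.17 (adjusted p = 0.805) in ex-Foxp3 cells.

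Whether Pydc3 moved apart from Pydc4 was tested on their count ratio within each library, a measure chosen with the results known. The pulse-chase libraries tested carry the replicate numbers of the labeled libraries that chose Pydc3, so their tests may not be independent of that choice. Pydc3 per Pydc4 averaged 0.766 ± 0.134 in fl/fl ex-Foxp3 cells, against 1.13 ± 0.103 in control ex-Foxp3 cells (SD, n = 6 and 5). The fl/fl values ran from 0.629 to 0.967 and the control values from 0.985 to 1.23, so the groups did not overlap. The log2 ratio differed by -0.58 ± 0.12 (2-sided exact permutation test, p = 0.00433, the smallest this design allows, and 0.013 adjusted over 3 tests). In post-tamoxifen cells the ratio averaged 0.623 ± 0.162 in fl/fl and 0.931 ± 0.155 in control, a log2 difference of -0.60 ± 0.19 (2-sided exact permutation test, p = 0.0173, adjusted 0.026). That second difference lost its call without control numbers 2 and 3 (exact p = 0.0714) and without the libraries control post-tamoxifen 2 and fl/fl post-tamoxifen 3, which had the lowest Foxp3 of their groups (exact p = 0.0635). In the chimera the log2 ratio differed by -0.09 ± 0.21 (2-sided exact permutation test, p = 0.771). Labeled cells, not tested, averaged 0.553 ± 0.136 in fl/fl and 1.04 ± 0.327 in control.

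**Figure D3:**
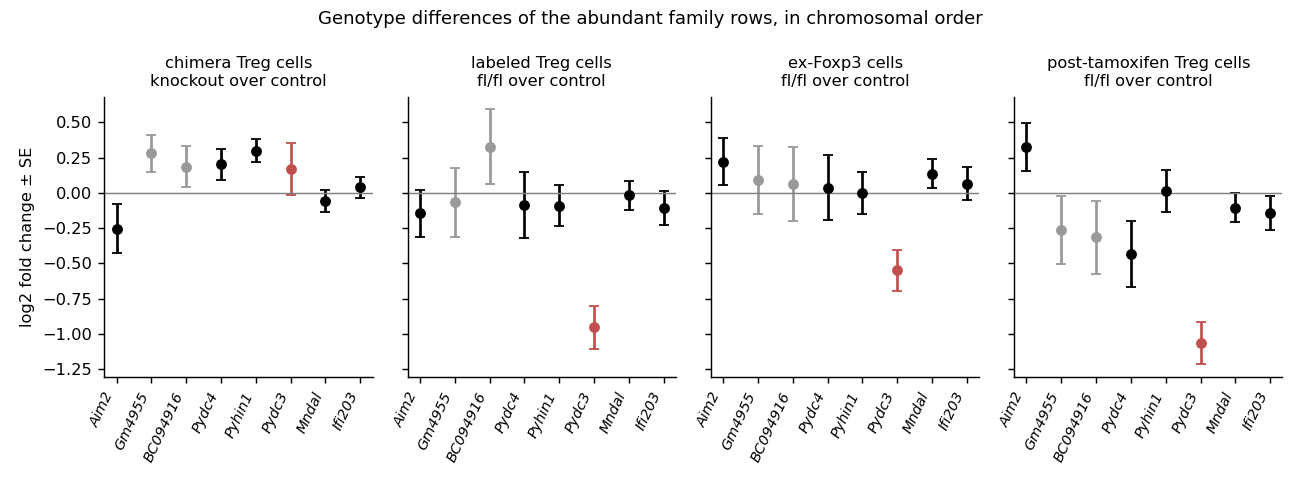
Log2 fold change ± SE of the 8 abundant family rows, in chromosomal order, for knockout or fl/fl over control in 4 cell populations. Pydc3 is red, the other members are black and the rows that are no members are grey. Pydc3 stands at -0.95, -0.55 and -1.06 in the pulse-chase panels where every other row lies nearer 0, and at 0.17 in the chimera panel, where several rows lie farther from 0.

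Between populations of a genotype, Pydc3 was highest in ex-Foxp3 cells. In fl/fl mice ex-Foxp3 cells averaged 102 ± 21.0 CPM and post-tamoxifen Treg cells 65.4 ± 10.4 CPM, a log2 fold change of 0.63 ± 0.14 (adjusted p = 0.00244). The ex-Foxp3 library lay above the post-tamoxifen library of the same number in 6 of 6 pairs, although the groups overlap slightly. With numbers 4 and above alone the call was lost (log2 fold change 0.39, adjusted p = 0.101). Of all genes tested 15.2% were called, and Pydc3 was 1 of the 8 members tested. With the replicate number as a block, Ifi203 was called too, at 0.27 (adjusted p = 0.0139), being higher in ex-Foxp3 cells in 6 of 6 pairs; without the block its adjusted p was 0.102.

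In controls ex-Foxp3 cells averaged 149 ± 35.2 CPM of Pydc3 and post-tamoxifen cells 137 ± 26.0 CPM, with 3 of 5 pairs higher in ex-Foxp3 cells. The log2 fold change was 0.11 ± 0.15 (adjusted p = 0.820), and no member was called, beside 5.33% of all genes. An unadjusted p under 0.05 was found for 1 of 8 members, beside 1540 of all 9921 genes tested. Without control post-tamoxifen number 2, Aim2 was called higher in ex-Foxp3 cells, at 0.65 (adjusted p = 0.0118). The difference between genotypes in this population effect was 0.52 ± 0.21 on the log2 scale (adjusted p = 0.413), so a genotype-dependent effect was not shown. For that interaction 0.0504% of all genes were called, and no member by edgeR or DESeq2. Its unadjusted p was under 0.05 for 1 of 8 members, beside 971 of all 9921 genes tested.

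Ex-Foxp3 cells also lay above labeled cells, in 6 of 6 fl/fl pairs and 5 of 5 control pairs. Because the labeled libraries chose the gene, these are descriptions, with log2 fold changes of 0.79 ± 0.15 in fl/fl and 0.39 ± 0.15 in control mice. Among the other members none was called in either genotype by edgeR or DESeq2, against 4.09% of all genes in fl/fl and 0.353% in control. Labeled and post-tamoxifen cells differed less, at -0.16 ± 0.15 in fl/fl mice (59.2 CPM in labeled and 65.4 CPM in post-tamoxifen cells) and -0.28 ± 0.15 in control mice (113 CPM in labeled and 137 CPM in post-tamoxifen cells). Ordered by mean, both genotypes ran ex-Foxp3, post-tamoxifen, labeled. Their labeled and post-tamoxifen cells were not called apart, nor were control ex-Foxp3 and post-tamoxifen cells.

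**Figure D4:**
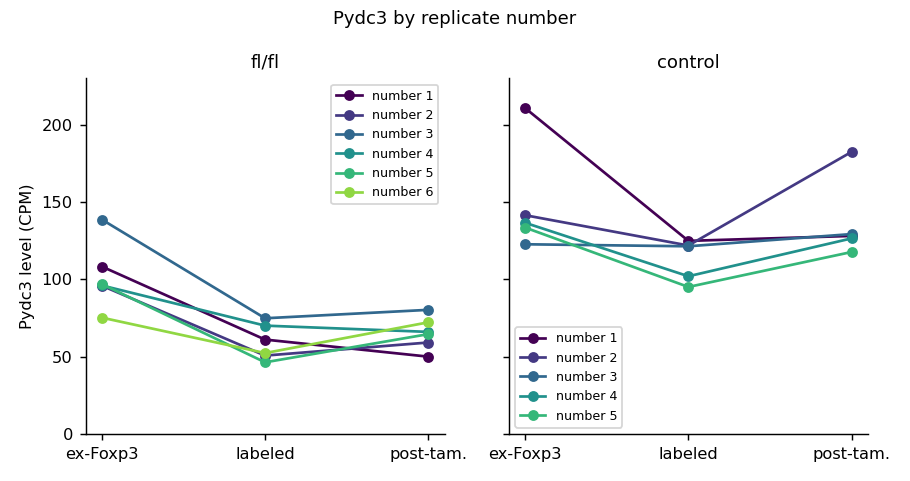
Pydc3 in CPM for each replicate number across ex-Foxp3, labeled and post-tamoxifen cells, fl/fl left and control right, lines joining libraries of the same number. Each line falls between ex-Foxp3 and labeled cells, and the highest points are control ex-Foxp3 number 1 at 211 and control post-tamoxifen number 2 at 182.

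Pyhin1 gave the 1 call among members in the chimera. Its level was 287, 274, 313 and 293 CPM in knockouts, against 212, 272, 243 and 220 CPM in controls. All knockouts lay above all controls, at 292 ± 16.2 CPM in knockouts and 237 ± 26.6 CPM in controls, although the closest libraries stood at 274 CPM (knockout) and 272 CPM (control). The log2 fold change was 0.30 ± 0.08 (adjusted p = 0.0469). Leaving out any single library other than control 2 ended the call (adjusted p up to 0.186), as did leaving out controls 3 and 4 (0.268), which stood apart in markers of other cells. Their B and plasma cell sums were 93.3 and 89.6 CPM and their CD8 T cell sums 43.6 and 28.0 CPM, against at most 15.4 and 21.2 CPM in the other chimera libraries. The part of these cells in the Pyhin1 difference was not tested. The near copy BC094916 stood at 0.19 ± 0.14 (adjusted p = 0.645), Pydc4 at 0.20 ± 0.11 (0.449) and Gm4955 at 0.28 ± 0.13 (0.370), none called. Over the 6 members tested the median log2 fold change was 0.10, beside 0.00 over all genes.

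Aim2 gave a call between control populations. It held 56.6, 62.8, 59.1, 55.8 and 69.8 CPM in labeled Treg cells, against 24.1, 61.2, 27.8, 42.6 and 39.8 CPM in post-tamoxifen Treg cells. The log2 fold change was 0.58 ± 0.18 (adjusted p = 0.0331), and labeled cells were higher in 5 of 5 pairs, by little in number 2. Leaving out labeled number 2 or 5, or post-tamoxifen number 1, 3 or 5, ended the call (adjusted p 0.0583 to 0.141). Aim2 was 1 of the 8 members tested, beside 7.93% of all genes. In fl/fl mice the same comparison gave 55.2 ± 10.4 CPM in labeled and 50.2 ± 9.18 CPM in post-tamoxifen cells, a log2 fold change of 0.12 ± 0.16 (adjusted p = 0.799). No member was called there, beside 4.58% of all genes. None had an unadjusted p under 0.05, beside 1645 of all 9921 genes tested. The difference between the genotypes was not tested.

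Ifi203 and Mndal were steady beside these. Group means of Ifi203 ran from 457 to 611 CPM and those of Mndal from 326 to 391 CPM. In single libraries Mndal per Ifi203 stayed between 0.557 and 0.851. Neither gene was called in any of the 11 comparisons as fitted.

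Ifi204, a mouse relative of human IFI16 that acts in interferon induction, was scarce and divided by replicate number. In fl/fl ex-Foxp3 cells it held 22.0, 7.77 and 22.9 CPM in numbers 1 to 3 and 3.34, 2.05 and 2.30 CPM in numbers 4 to 6. In fl/fl labeled cells the levels were 8.92, 4.41 and 10.01 CPM in numbers 1 to 3 and 0 in numbers 4 to 6. In fl/fl post-tamoxifen cells they were 28.7, 16.2 and 34.7 CPM, then 4.16, 0 and 1.16 CPM. Numbers 1 to 3 thus lay above numbers 4 to 6 in each fl/fl population. What the numbers stand for is not given in the labels. Uhrf1 split at the same place in fl/fl labeled cells (69.2 to 88.5 CPM in numbers 1 to 3, 10.4 to 19.0 CPM in numbers 4 to 6) and fl/fl post-tamoxifen cells (124 to 156 CPM, then 18.9 to 33.6 CPM), but not in fl/fl ex-Foxp3 cells (6.99 to 26.2 CPM, then 11.5 to 17.3 CPM). It also split in control labeled cells (59.3 to 103.8 CPM in numbers 1 to 3, 11.3 and 15.4 CPM in numbers 4 and 5), where Ifi204 was at or near 0. Control post-tamoxifen cells showed the Uhrf1 split too (22.1 to 59.6 CPM, then 13.7 and 17.7 CPM), while Ifi204 ranged from 0 to 21.6 CPM without one. Control ex-Foxp3 cells showed none for Uhrf1 (14.9 to 34.2 CPM, then 7.30 and 16.3 CPM). Markers of other cells divided at the same numbers in fl/fl post-tamoxifen cells: the sum over 8 B and plasma cell markers was 566, 172 and 200.2 CPM in numbers 1 to 3 and 10.2 to 11.8 CPM in numbers 4 to 6, and that over 8 dendritic cell markers 201, 49.1 and 67.3 CPM, then 5.12 to 16.9 CPM. In fl/fl ex-Foxp3 and labeled cells, where Ifi204 divided too, the B and plasma sums stayed at or under 18.9 CPM and the dendritic sums at or under 16.6 CPM. The part of Uhrf1 or of these cells in the Ifi204 levels was not tested.

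Control cells held at most 2.15 CPM of Ifi204 in ex-Foxp3 and 1.15 CPM in labeled cells, and 21.6, 0, 1.98, 2.89 and 6.41 CPM in post-tamoxifen cells. In numbers 4 and above the post-tamoxifen mean was higher in control (4.65 CPM) than in fl/fl cells (1.77 CPM). The ex-Foxp3 mean there was 0.728 CPM in control and 2.57 CPM in fl/fl, and labeled cells of both genotypes held 0. No comparison of Ifi204 was called as fitted, for example fl/fl over control in ex-Foxp3 cells at 3.44 ± 1.25 (adjusted p = 0.308), a fold that rests on 140 reads in fl/fl and 10 in control libraries. With the replicate number as a block, labeled fl/fl cells fell by 1.92 on the log2 scale relative to post-tamoxifen fl/fl cells (adjusted p = 0.0342). In controls labeled over post-tamoxifen cells stood at -4.09 ± 1.59 (adjusted p = 0.124), resting on 3 reads in labeled cells. That difference was called under DESeq2 (adjusted p = 0.0407), without the doubted libraries (0.0323) and with the block (0.00553). The block also called Ifi204 lower in ex-Foxp3 than in post-tamoxifen controls (adjusted p = 0.0282), and higher in fl/fl than in control ex-Foxp3 cells (0.0493). That last call is weak, since fl/fl and control libraries share only a number. Deviations of their same-numbered ex-Foxp3 libraries correlated at 0.03 to 0.16. Ifi204 also passed the low-count filter mainly through fl/fl libraries.

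AI607873 beside it was lower in labeled than in post-tamoxifen cells in both genotypes. Only post-tamoxifen libraries held enough reads to take this row past the low-count filter, so the difference is a description and carries no test. AI607873 held 0 to 1.16 CPM in fl/fl labeled cells and 0.772 to 31.7 CPM in fl/fl post-tamoxifen cells. In controls its level was 0 to 0.385 CPM in labeled and 0.325 to 20.3 CPM in post-tamoxifen cells. Macrophage and monocyte markers varied with population as well. Their sum over 19 genes was 403 to 1727 CPM in fl/fl and 334 to 1260 CPM in control post-tamoxifen cells, against 244 to 304 CPM in ex-Foxp3 and 255 to 394 CPM in labeled cells of both genotypes. All 19 markers were detected in fl/fl post-tamoxifen cells and 18 in control post-tamoxifen cells, with Lyz1 at 0. In fl/fl ex-Foxp3 cells 17 of the 19 were detected, at sums of 244 to 290 CPM, and Ifi204 held 2.05 to 22.9 CPM there. Within post-tamoxifen cells the highest sums, in fl/fl number 3 and control number 1, stood beside the highest Ifi204 of each genotype. Fewer cells of a type and less RNA per cell cannot be told apart in such libraries, and the part of macrophage RNA in Ifi204 and AI607873 was not tested. Mnda, a myeloid nuclear antigen in human cells, ran from 0 to 9.69 CPM and was called nowhere.

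**Figure D5:**
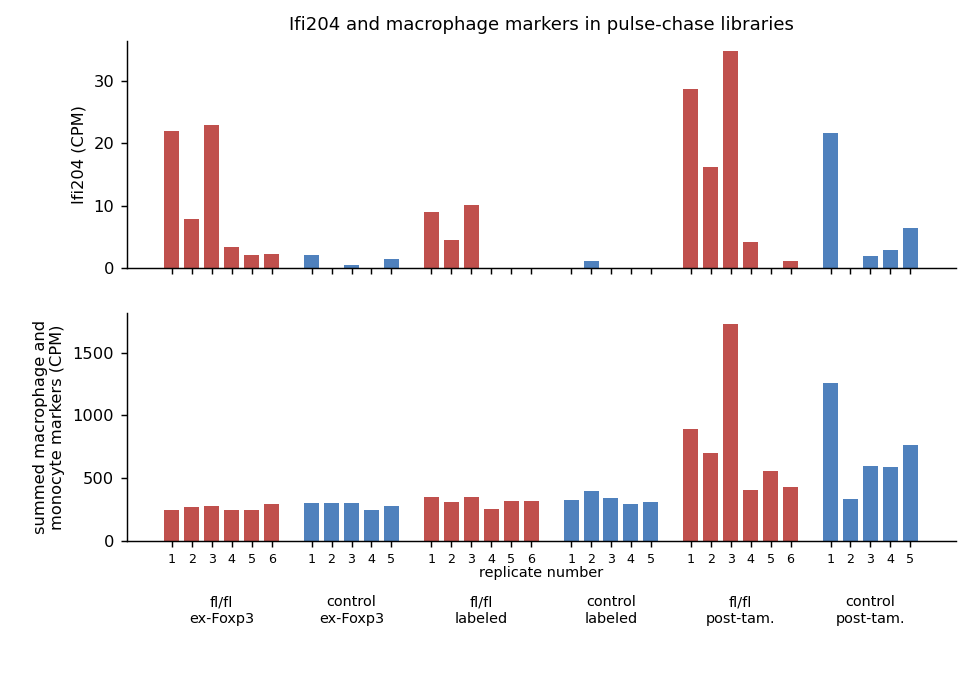
Ifi204 in CPM (top) and the summed CPM of 19 macrophage and monocyte markers (bottom) in each pulse-chase library, by replicate number. Red bars are fl/fl and blue bars control. Ifi204 is higher in numbers 1 to 3 than in numbers 4 to 6 of each fl/fl population, and control post-tamoxifen number 1 holds 21.6, while the marker sum rises in post-tamoxifen libraries alone, up to 1727.

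Of 38 interferon-stimulated genes outside the cluster that were tested, none was called between genotypes in the chimera, labeled or ex-Foxp3 cells, at medians of 0.09, 0.14 and 0.22 on the log2 scale, beside 0.00 over all genes. In post-tamoxifen cells 3 of 38 rose in fl/fl and none fell, beside 7.23% of all genes called there: Ifi27l2a by 1.05 ± 0.20 (adjusted p = 0.00177), Epsti1 by 0.59 ± 0.15 (0.0118) and Eif2ak2, the kinase PKR, by 0.42 ± 0.13 (0.0475). Among 13 interferon receptor and signalling genes, Ifngr2, the second chain of the interferon gamma receptor, fell in fl/fl ex-Foxp3 cells (-1.35 ± 0.24, adjusted p = 0.00401) and in fl/fl post-tamoxifen cells (-0.73 ± 0.22, adjusted p = 0.0395). Of all genes 0.181% and 7.23% were called in these comparisons. Ifngr1, the ligand-binding chain, rose in chimera knockouts by 0.41 ± 0.09 (adjusted p = 0.0148), beside 2.41% of all genes called. In fl/fl ex-Foxp3 over post-tamoxifen cells 1 of the 13 genes was called higher and 2 lower, beside 15.2% of all genes. Ifngr2 was among those lower in ex-Foxp3 cells (-1.42 ± 0.23, adjusted p = 6.55e-05). Of the 38 interferon-stimulated genes 1 was called higher and 1 lower there.

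Genes of DNA sensing and of inflammasomes had calls in both experiments. Of 12 tested in post-tamoxifen cells, Casp1 and Casp4, the inflammatory caspases, rose in fl/fl by 0.94 ± 0.19 (adjusted p = 0.00254) and 0.97 ± 0.23 (0.00942), and the kinase gene Ikbke fell by 0.52 (± 0.14, adjusted p = 0.0178), beside 7.23% of all genes called. Of 11 tested in the chimera, Casp1 and Casp4 fell in knockouts, by 0.86 (± 0.24, adjusted p = 0.0497) and 0.78 (± 0.21, adjusted p = 0.0405), beside 2.41% of all genes called. Between control populations both were higher in labeled than in post-tamoxifen cells, Casp1 by 0.62 ± 0.20 (adjusted p = 0.0454) and Casp4 by 0.92 ± 0.24 (0.0145), as was Aim2, beside 7.93% of all genes called. Macrophage markers, given above, had the opposite order, being highest in post-tamoxifen cells, and their part was not tested.

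Genes known to differ between inbred strains were read beside Pydc3. Their list was chosen with earlier results of these data known, so its counts of called genes are a description. Of the 5 listed genes Nnt, a mitochondrial transhydrogenase disrupted in C57BL/6J mice, was the 1 called between pulse-chase genotypes. Its level was 24.0 ± 3.55 CPM in fl/fl and 57.2 ± 7.24 CPM in control ex-Foxp3 cells (log2 fold change -1.26 ± 0.15, adjusted p = 2.82e-06), and 27.9 ± 6.12 CPM in fl/fl and 51.1 ± 5.87 CPM in control post-tamoxifen cells (-0.86 ± 0.15, adjusted p = 0.000671). Every fl/fl library lay below every control library in both. In labeled cells Nnt held 31.3 ± 3.48 CPM in fl/fl and 50.6 ± 8.71 CPM in control, not called but also without overlap. In the chimera, where Pydc3 did not differ, Nnt was at 57.9 ± 5.75 CPM in knockouts and 62.9 ± 5.96 CPM in controls (adjusted p = 0.787), while Naip2, Naip5, Naip6 and Nlrp1b, the other 4 genes of that list, fell in knockouts (log2 fold changes -1.49, -2.59, -2.02 and -1.60, adjusted p at most 0.00139). In the pulse-chase genotype comparisons none of those 4 was called, with log2 fold changes of -0.47 to 0.36. Within a genotype the list varied with population. In labeled over post-tamoxifen cells 3 of the 5 genes were called higher in either genotype (median log2 fold change 1.09 in fl/fl, 1.38 in control). In ex-Foxp3 over post-tamoxifen cells 2 were called higher in fl/fl and 1 in control. Of all genes 4.58%, 7.93%, 15.2% and 5.33% were called in these comparisons. The part of strain background in the Pydc3 levels was not tested.

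The 5 genes whose log2 CPM went most closely with Pydc3 over the 33 pulse-chase libraries, out of 7033 compared, were Apbb1ip (r = 0.87), Rassf2 (0.82), Cd55 (0.78), Stk38 (0.78) and Fam78a (0.78). The nearest member was Pydc4 at 0.55. With each library set against its group mean, the leaders were Slfn1 (0.67), Ifit2 (0.67), Pik3r5 (0.66), Irgm2 (0.66) and Tomm40 (0.66), followed within the family by Pydc4 (0.63), Gm4955 (0.60), BC094916 (0.50), Mndal (0.49), Ifi203 (0.46) and Pyhin1 (0.40), with Aim2 at 0.00. Such correlations are a description, since libraries share depth and replicate number, and close copies may share reads.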

How the data were processed

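RNA of sorted cells was made into SMARTer Stranded total RNA libraries, per the labels' protocols, and the submitters' processing notes name bcl2fastq 2.17.1.14, the aligner TopHat2 2.1.0 and build mm10. Raw gene counts of all 41 libraries were deposited as a single table. Annotation, strand and multi-mapping settings are not given in the sources used here. Rows were taken by symbol, since the identifiers of Aim2, Ifi203 and Mnda in the table belong to other genes in GENCODE M21.

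The members and the gene lists were chosen with earlier results of these data known. Labels call the replicates biological. Replicates all differed by more than counting error (chi-square per degree of freedom at least 2.57). The count test was edgeR 4.0.16 (R 4.3.3) with TMM factors, its default expression filter and robust quasi-likelihood fits, 2-sided, over 9569 genes and 8 libraries in the chimera and 9921 genes and 33 libraries in the pulse-chase experiment. Library totals limit the precision of scarce genes. In simulated data, 81 of 100 genes with a 2-fold and 99 of 100 with a 4-fold difference were found for the chimera (9475 genes), beside 14 genes called without one. For labeled genotype (9791 genes) these were 66, 87 and 11, and for ex-Foxp3 genotype (9804 genes) 65, 89 and 0. Replicate numbers paired the libraries (every correlation of deviations above 0.1) in ex-Foxp3 against labeled cells (0.144 to 0.360 in fl/fl, 0.139 to 0.303 in control), and in fl/fl labeled (0.244 to 0.438) and fl/fl ex-Foxp3 (0.127 to 0.393) against post-tamoxifen cells. Among controls, Y-linked reads marked numbers 2 and 3 in every population. Comparisons that involve the same group share its libraries. Members were all named, with the 5 genes most like Pydc3. Called genes of each list, at most 6, were named for genotype comparisons, and only in part for comparisons of populations. Exon length and 50-base words come from GENCODE M21, promoters from RefSeq GRCm38.p6. Alternatives were RLE and upper quartile factors, other filters, DESeq2 1.42.0, a replicate block, the compared groups alone, subsets of replicate numbers, and fits without single or doubted libraries. The ratio of Pydc3 to Pydc4 was added after seeing the data.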

Additional observations from a re-analysis of the deposited data

Results flagged for a closer look

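Over 63 groups of libraries, each 1 member in 1 group of 4 to 6 libraries, 9 held a library set apart from the rest by more than Dixon's 95% limit. Chance sets 1 library apart in about 1 in 20 groups, and members measured in the same library are not independent. Control ex-Foxp3 number 1 stood apart for 4 members: Pydc3 at 211 CPM (next 142), Pydc4 at 214 CPM (next 124), Pyhin1 at 298 CPM (next 235) and, below the rest, Aim2 at 37.5 CPM (next 56.7). Control post-tamoxifen number 2, the library with the lowest Foxp3 of its group, stood apart for Pydc3 at 182 CPM (next 129) and Ifi203 at 631 CPM (next 489). In fl/fl ex-Foxp3 cells, number 3 held 498 CPM of Mndal (next 388). Ifi204 stood apart in chimera control 3 at 1.58 CPM and in control labeled number 2 at 1.15 CPM, where all other libraries of these groups were at 0.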

How the results depend on the processing

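Of 1874 alternative values for 86 pairs of a member and a comparison, 1838 were the same, 19 lost a call, 15 gained one, 2 moved and 0 reversed. The same meant the same side of the threshold, and the same direction where called. Labeled genotype values, which carry no test, were instead the same where the fold change stayed within the SD of the libraries. Calls that Pydc3 lost there are thus not among the 19. The post-tamoxifen genotype difference of Pydc3 kept its call in all 22 alternatives. Pydc3 between genotypes of ex-Foxp3 cells gained a call under DESeq2 (-0.55, adjusted p = 0.0455), with the replicate block (-0.53, 0.0272) and without 4 doubted libraries (-0.71, 0.0221). The doubted libraries of that comparison were all fl/fl. With numbers 4 and above alone, Pydc3 in fl/fl ex-Foxp3 over post-tamoxifen cells stood at 0.39. Leaving out single libraries kept Pydc3 between -1.13 and -0.91 in post-tamoxifen, -0.65 and -0.39 in ex-Foxp3 and -0.02 and 0.27 in the chimera genotype comparisons. Members called numbered 0 in the chimera (1 as fitted) with the block or without controls 3 and 4, and 0 to 1 without single libraries. For ex-Foxp3 genotype (0 as fitted) they numbered 1 under DESeq2 and without doubted libraries, and 2 with the block, where Ifi204 joined. Between labeled and post-tamoxifen controls (1 as fitted) there were 2 under DESeq2 and without doubted libraries, 3 with the block (Pydc4 and Ifi204 joined), and 0 with the compared groups alone, with either subset of numbers and without controls 2 and 3, and 0 to 1 without single libraries. The block gave 1 in fl/fl labeled over post-tamoxifen (0 as fitted), 2 in fl/fl ex-Foxp3 over post-tamoxifen (1 as fitted) and 1 in the control comparison (0 as fitted). That last count was also 1 without doubted libraries and 0 to 1 without single libraries, Aim2 joining at 0.65 without control post-tamoxifen number 2. Fl/fl ex-Foxp3 over post-tamoxifen gave 0 with numbers 4 and above and 1 to 2 without single libraries. Post-tamoxifen genotype gave 1 to 2, Aim2 joining at 0.57 without the same library. Fl/fl and control libraries share only a number: same-numbered deviations correlated between genotypes at -0.09 to 0.02 (chimera), 0.08 to 0.29 (labeled), 0.03 to 0.16 (ex-Foxp3) or -0.08 up to 0.24 (post-tamoxifen), and best with their own number in 0 of 4, 2 of 5, 1 of 5 and 2 of 5 libraries. Control labeled and ex-Foxp3 libraries correlated with post-tamoxifen libraries of their number at -0.02 to 0.25 and 0.05 to 0.17, not all above 0.1, although Y-linked reads marked the same numbers. The block changed no other member's call, and the cause of these changes was not tested. Counts over all genes moved more: 149 labeled genotype genes were called with the block, 41 with the groups alone and 51 under DESeq2 (1 as fitted), and 229, 137 and 85 for ex-Foxp3 genotype (18 as fitted). For post-tamoxifen genotype (717 as fitted) these were 1650 with the block and 147 with the groups alone. With the block there were 893 for ex-Foxp3 over labeled cells in fl/fl (406 as fitted) and 211 in control (35 as fitted), 805 and 1280 for labeled over post-tamoxifen cells (454 and 787 as fitted), 878 for ex-Foxp3 over post-tamoxifen controls (529 as fitted) and 100 for the interaction (5 as fitted). Numbers 1 to 3 alone gave 71, 143 and 1325 in the labeled, ex-Foxp3 and post-tamoxifen genotype comparisons, and numbers 4 and above 7, 5 and 209. Without controls 2 and 3 these were 0, 5 and 451. In the chimera (231 as fitted), 396 were called with no filter, 95 without controls 3 and 4, and 100 to 352 without single libraries. The Pydc3 to Pydc4 log2 ratio ranged over alternatives between -0.65 and -0.47 for ex-Foxp3 cells, and between -0.75 and -0.47 for post-tamoxifen cells; subsets of numbers were too small to pass. Depth limits Ifi204, Mnda, Ifi202b and Ifi205.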
